A study of Mus musculus with 2 samples.

Results

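The DNA replication and S phase genes are a group of 44 genes, named by symbol, among the 31053 genes counted in each of 2 single-cell RNA libraries. Their unique molecular identifiers (UMIs, each one captured mRNA molecule) were read from the deposited count tables, with Ensembl identifiers matched to mouse symbols. For each library, and for each of the authors' 8 clusters within it, the UMIs of all cells were added up and are given per 1000000 UMIs (CPM). All 44 genes were found in both tables. They fall into 10 groups by role: helicase loading, the MCM helicase, helicase activation, the sliding clamp and its loader, polymerases and primase, single-strand binding, lagging strand completion, nucleotide supply, a mixed group of repair, histone supply and protein degradation, and regulators of the step from G1 to S phase.

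Both libraries came from LSK cells, the lineage-low or lineage-negative, Sca1-positive, c-Kit-high gate that holds blood stem cells and early progenitors, of C57BL/6 mice with a liver tumour. One library held LSK cells of the spleen and the other LSK cells of the bone marrow. In both groups 750000 Hepa1-6 cells, a mouse hepatoma line, carried in 25 µl of a gel matrix diluted to 50%, had been placed in the left liver lobe at 6 to 8 weeks of age. Both groups carried the tumour, so the comparison is between organs of tumour-bearing mice. The number of mice behind each library, the time from injection to sorting, and which magnetic bead step (lineage depletion or c-Kit enrichment) preceded the flow sort of which organ are not given in the sources used here. With 1 library per organ there is no replicate. No test was run, and the intervals below are exact 95% intervals that cover counting error only.

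Before a cell copies its DNA, the origin recognition complex with Cdc6 and Cdt1 loads the ring-shaped MCM helicase onto chromatin. In S phase Cdc45 and the GINS complex turn the helicase on, primase and the replicative polymerases copy the strands, and PCNA, placed by replication factor C, holds the polymerases on DNA. The genes for these proteins are classical targets of the E2F transcription factors, which cyclin E and its kinase partner release from the retinoblastoma proteins late in G1. In blood formation most long-term stem cells rest, while multipotent and erythroid progenitors divide often.

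The spleen library held 6546 cells and 85937174 UMIs, and the bone marrow library 10088 cells and 73740963 UMIs, with medians of 9978 and 5991 UMIs per cell. The 2 libraries shared 16 cell barcodes. The pools differed in makeup. By the authors' atlas labels, 3529 spleen cells (53.9%) and 120 bone marrow cells (1.19%) carried the name of a mature or other lineage (dendritic cell, macrophage, T, NK or B cell, mast cell or basophil). The summed level of 10 dendritic or antigen-presenting genes was 17939 CPM in spleen and 773 CPM in bone marrow, with none of the 10 at 0 in either library. Kit, which encodes c-Kit, was found at 143 to 1307 CPM over the 8 spleen clusters and at 188 to 526 CPM over the 8 bone marrow clusters. Ly6a, which encodes Sca1, was found at 5.31 to 680.3 CPM and at 5.96 to 124 CPM, with its lowest level in the cluster named MEP in both organs. The authors' clusters are named HSC-1, HSC-2, HSC-3, MEP, DCP, LP, MP and MCP. Red cell genes were highest in MEP (3401 CPM in spleen, 2446 CPM in bone marrow), dendritic genes in MP (64920 and 28020 CPM) and mast cell or basophil genes in MCP (31078 and 4514 CPM). The clusters were made from these same cells, so differences between clusters are given as a description.

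Over all cells, the replication genes took nearly the same small share of both libraries. They made up 214086 UMIs, 0.249% of the total, in spleen and 187099 UMIs, 0.254% of the total, in bone marrow. The summed level was 2491 CPM in spleen and 2537 CPM in bone marrow, a ratio of 0.982 (0.976 to 0.988). Ratios were read for genes that averaged 10 CPM or more across the libraries, which holds for 42 of the 44. Orc1 (6.69 CPM in spleen, 4.29 CPM in bone marrow) and Gins3 (9.88 and 9.56 CPM) did not reach it. A gene counts as higher or lower where its ratio of CPM + 1 is at least 1.5-fold. By that rule 3 of 42 genes were higher in spleen, beside 10.8% of all 8644 genes measured, and 0 were lower, beside 18.3% of all genes. The median log2 ratio of spleen over bone marrow was -0.02 for the replication genes and -0.11 for all genes, and the sign of the first depended on scaling: it was 0.18 with TMM factors, which move the median of all genes to 0.10.

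The 3 genes higher in spleen were Ccne1, Rrm2 and Nasp. Ccne1, which encodes cyclin E1 (chr7:38097984-38107534, GRCm38), had 21.0 CPM in spleen and 6.44 CPM in bone marrow, a 3.26-fold ratio (2.95 to 3.62). It passed the limit on level through its spleen value, since its bone marrow level lies under 10 CPM. Rrm2, the S phase subunit of ribonucleotide reductase (chr12:24708241-24714146), had 46.5 and 25.1 CPM, a 1.85-fold ratio (1.75 to 1.96). Nasp, a chaperone of histone H3 and H4 (chr4:116601052-116627941), had 175 CPM in spleen and 108 CPM in bone marrow, a 1.62-fold ratio (1.57 to 1.66). At the other end Dtl, the substrate receptor of the ligase that destroys Cdt1 at PCNA, had 82.4 CPM in spleen and 120.4 CPM in bone marrow, and its log2 ratio of -0.54 was the lowest of the 42. With each cell weighted alike, 0 of 40 genes were higher, beside 8.5% of all genes, and 3 were lower, beside 12.6%. With each cell thinned to 3700 UMIs, 0 of 40 were higher, beside 7.62%, and 5 lower, beside 12.6%, so the lower share lies at the background. Without the cells labelled as other lineages, 10 of 43 genes were higher, beside 14.4% of all genes, and 0 were lower, beside 23.7%. The median was then 0.36, beside -0.13 for all genes.

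The UMIs came from different cells in the 2 organs. MEP cells were 13.6% of spleen cells and gave 36.8% of the spleen UMIs and 58.7% of the spleen UMIs of replication genes. In bone marrow MEP cells were 3.54% of cells and gave 7.38% of the UMIs of these genes, while HSC-2 gave 38.4% and HSC-3 28.4%. Of the 1805 Ccne1 UMIs in spleen, 1605 came from MEP cells, and of the 475 in bone marrow, 129 did. With the clusters weighted alike in both libraries, the log2 ratio of Ccne1 was 0.48 and that of Nasp 0.26, both under the limit, and Rrm2 at 0.61 was the 1 gene past it.

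**Figure D1:**
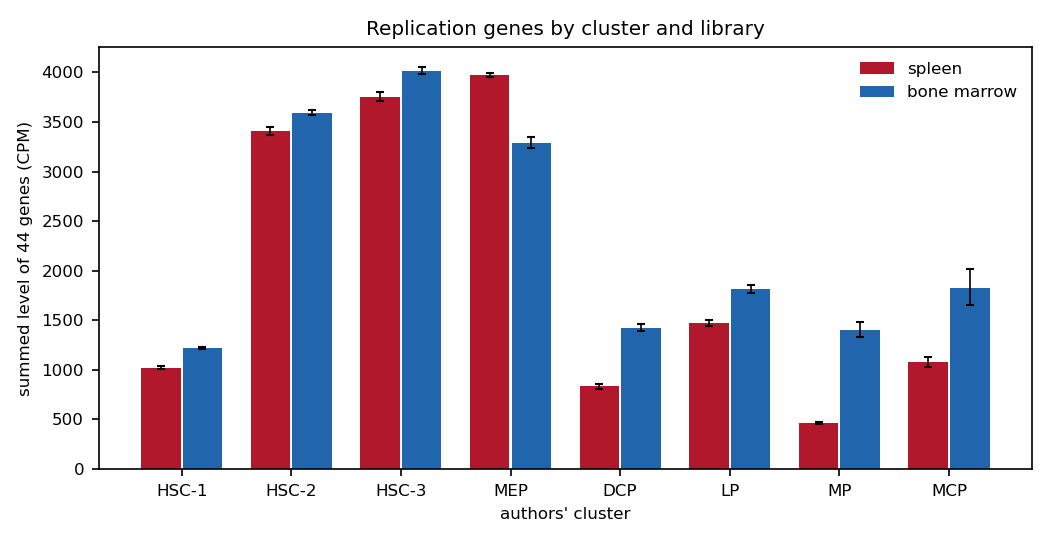
Summed level of the 44 replication genes (CPM) in each of the authors' clusters, spleen (red, left bar) and bone marrow (blue, right bar); error lines are exact 95% Poisson intervals for counting error only. HSC-2, HSC-3 and MEP lie between 3290 and 4019 CPM in both organs, and the MP cluster of spleen, at 461 CPM, has the lowest bar.

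The clusters fell into a high and a low set. In spleen the summed level was 3411 CPM in HSC-2, 3755 CPM in HSC-3 and 3970 CPM in MEP. In bone marrow it was 3592, 4019 and 3290 CPM in the same clusters. In the low set, spleen HSC-1 had 1024 CPM and bone marrow HSC-1 1221 CPM, LP had 1471 and 1816 CPM, DCP 836 and 1427 CPM, MCP 1080 and 1827 CPM, and MP 461 and 1407 CPM. Spleen was the lower organ in every cluster except MEP, where the ratio was 1.21. MP had the lowest ratio, 0.327. Depth per cell differs between these cells, with a median of 36084 UMIs in spleen MEP and 11230 UMIs in bone marrow MEP. After thinning each cell to 3700 UMIs, a spleen MEP cell had a median of 14 UMIs of replication genes (quartiles 10 and 18) and a bone marrow MEP cell 10 (6 and 16). HSC-2 cells had medians of 10 and 12, HSC-3 cells 13 and 14, HSC-1 cells 3 and 4, and MP cells 1 and 3. Without thinning the medians were 145 and 27 in MEP and 6 and 5 in HSC-1. Thinning left out 672 spleen cells and 1007 bone marrow cells that were shallower.

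The place of the highest level differed between organs and between genes. Over the 7 clusters with at least 100 cells in both libraries, and the 41 genes that averaged 10 CPM or more over them in that library, the spleen peak was HSC-2 for 9 genes, HSC-3 for 16 and MEP for 16. In bone marrow it was HSC-2 for 10 genes, HSC-3 for 28 and MEP for 3. Among all genes, 6.88% peaked in HSC-2, 6.17% in HSC-3 and 27.4% in MEP of spleen, and 4.8% in HSC-2, 8.73% in HSC-3 and 23.5% in MEP of bone marrow. No replication gene peaked in HSC-1, DCP, LP or MP in either organ. Of all genes, 13.1%, 11.5%, 22.9% and 12% peaked in these clusters in spleen, and 18.6%, 16.7%, 10.7% and 17.1% in bone marrow. The lowest cluster was MP for 35 of 41 genes in spleen. In bone marrow it was HSC-1 for 20, DCP for 13 and MP for 8. The share of all genes lowest in each cluster was not computed, so these counts are a description.

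**Figure D2:**
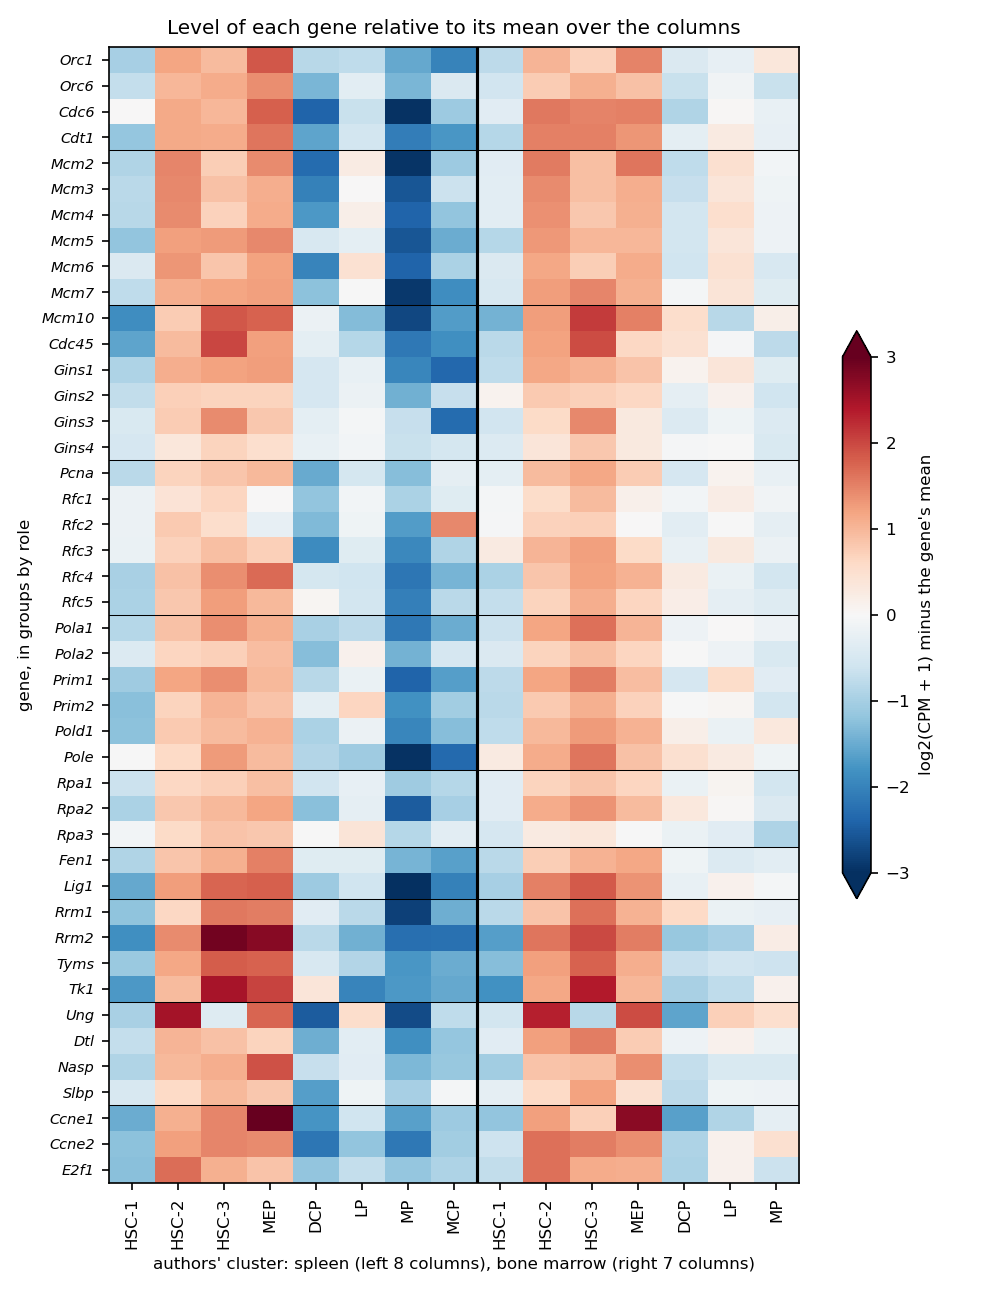
Level of each of the 44 genes, as log2(CPM + 1) minus the gene's mean over 15 sums of at least 100 cells, with spleen clusters left of the black line and bone marrow clusters right of it; thin lines part the groups by role. Most rows are red in HSC-2, HSC-3 and MEP and darkest blue in spleen MP, and Rfc2, Ung and Rpa3 are the rows least like the mean of the others, with r of 0.51, 0.72 and 0.73.

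The E2F and CCAAT letters of promoters are shown first for a few genes, because E2F is the textbook regulator of this group: Mcm5, Mcm6 and Cdc6 as windows that hold E2F letters, and Ung and Ccne1, described below, as windows that hold neither kind. The windows are the 250 bases before a start annotated in RefSeq (GRCm38.p6), in which 36 of the 44 genes were matched. That start is not always the outermost start of the gene. By the gene coordinates used here, from GENCODE, all windows of Cdc6, E2f1 and Mcm7 lie inside the gene, and some other windows do so in part or whole. The E2F letters searched were TTTCGCGC, TTTGGCGC, TTTCCCGC and TTTGCCGC, and the CCAAT letters were CCAAT, each on both strands. E2F letters overlap one another in the Mcm5 and Mcm6 windows. Capitals mark both kinds of letters. Mcm5 lies at chr8:75109259-75109508, plus strand, Mcm6 at chr1:128359706-128359955, minus strand, Cdc6 at chr11:98907901-98908150, plus strand, Ung at chr5:114130185-114130434, plus strand and Ccne1 at chr7:38107491-38107740, minus strand.
Mcm5: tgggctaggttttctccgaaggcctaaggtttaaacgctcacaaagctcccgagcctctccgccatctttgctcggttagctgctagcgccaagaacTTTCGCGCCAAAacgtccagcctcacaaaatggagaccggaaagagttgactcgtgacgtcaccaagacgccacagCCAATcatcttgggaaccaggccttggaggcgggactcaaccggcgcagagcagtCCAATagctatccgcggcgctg
Mcm6: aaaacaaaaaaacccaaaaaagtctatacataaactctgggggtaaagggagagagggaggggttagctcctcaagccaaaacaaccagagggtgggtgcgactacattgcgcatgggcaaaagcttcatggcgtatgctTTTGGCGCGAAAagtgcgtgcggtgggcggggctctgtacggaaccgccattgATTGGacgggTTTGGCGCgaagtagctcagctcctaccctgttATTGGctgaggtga
Cdc6: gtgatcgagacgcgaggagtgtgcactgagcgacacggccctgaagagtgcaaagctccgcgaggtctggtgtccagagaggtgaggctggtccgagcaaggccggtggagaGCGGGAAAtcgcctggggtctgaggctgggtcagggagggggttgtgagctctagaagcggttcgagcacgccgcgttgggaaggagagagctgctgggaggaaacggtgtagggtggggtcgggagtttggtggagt
Ung: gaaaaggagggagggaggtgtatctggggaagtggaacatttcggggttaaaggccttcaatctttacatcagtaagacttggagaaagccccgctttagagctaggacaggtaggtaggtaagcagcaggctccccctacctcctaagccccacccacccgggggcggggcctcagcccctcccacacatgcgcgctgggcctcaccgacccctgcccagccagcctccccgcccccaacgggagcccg
Ccne1: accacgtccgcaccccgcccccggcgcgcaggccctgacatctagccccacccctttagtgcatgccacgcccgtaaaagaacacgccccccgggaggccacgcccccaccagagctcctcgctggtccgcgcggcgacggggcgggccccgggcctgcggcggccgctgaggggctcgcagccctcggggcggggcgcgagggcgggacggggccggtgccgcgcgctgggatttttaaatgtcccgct

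E2F letters stood in the windows of 9 of 36 replication genes (25.0%), namely Orc1, Cdc6, Mcm5, Mcm6, Mcm7, Gins3, Rfc3, Pola1 and Dtl, against 2.16% of 27025 genes with a window. CCAAT letters stood in 23 of 36 (63.9%), against 37.5% of all genes, and both stood in one window for 8 of 36 (22.2%), against 0.870%. Neither stood in the windows of 12 of 36 (33.3%), against 61.3% of all genes. These were Ung, Ccne1, Cdt1, Rfc4, Rfc5, Pola2, Pold1, Fen1, Lig1, Tyms, Tk1 and E2f1, and they include Lig1 and Cdt1, whose profiles over clusters were the most like the members' mean. A match is a run of letters and not a shown binding site, and a window without a match says nothing about the factor.

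In spleen the helicase loading genes peaked in MEP. In bone marrow Orc6 and Cdt1 peaked in HSC-3 (90.4 and 82.4 CPM) and Cdc6 in HSC-2 (37.3 CPM). Orc6, a subunit of the origin recognition complex, had 114 CPM in spleen MEP and 79.3 CPM in bone marrow MEP. Cdc6, which recruits the helicase, had 43.9 CPM in spleen MEP and 36.0 CPM in bone marrow MEP, but 0.646 CPM (10 UMIs) in spleen MP against 10.1 CPM in bone marrow MP. Cdt1, the partner of Cdc6 in loading, had 87.7 and 72.2 CPM in MEP, and in HSC-2 62.9 CPM in spleen and 81.7 CPM in bone marrow. Orc1, the ATPase subunit of the origin complex, was highest in MEP in both organs, with 13.5 CPM in spleen and 10.2 CPM in bone marrow.

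The 6 genes of the MCM ring, Mcm2 to Mcm7, summed to 612 CPM in spleen and 649 CPM in bone marrow over all cells. In HSC-2 their summed level was 1027 CPM in spleen and 1032 CPM in bone marrow, a ratio of 0.995 (0.970 to 1.02). In MEP it was 970 and 905 CPM. In DCP it was 140 CPM in spleen and 296 CPM in bone marrow, and in MP 62.7 and 343 CPM. Mcm2, Mcm3, Mcm4 and Mcm6 peaked in HSC-2 of spleen, and Mcm3, Mcm4, Mcm5 and Mcm6 in HSC-2 of bone marrow. Mcm5 and Mcm7 peaked in MEP of spleen (128 and 234 CPM), and Mcm2 in MEP of bone marrow (105 CPM). Mcm7 was as high in HSC-3 as in HSC-2 or higher, with 229 and 212 CPM in spleen and 276 and 239 CPM in bone marrow.

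Most genes that switch the helicase on were highest in HSC-3. Mcm10, which helps to open the loaded helicase, had 54.6 CPM in spleen HSC-3 and 64.1 CPM in bone marrow HSC-3. In HSC-2 it had 25.0 and 35.7 CPM. Cdc45, part of the active helicase, had 40.7 and 39.4 CPM in HSC-3, and 19.3 and 23.1 CPM in HSC-2. Of the 4 GINS genes, Gins3 and Gins4 were highest in HSC-3 in both organs, with 20.4 and 20.7 CPM for Gins3 and 49.8 and 54.6 CPM for Gins4. Gins1 was highest in MEP of spleen (26.8 CPM) and HSC-2 of bone marrow (25.0 CPM), and Gins2 in HSC-2 of both (46.7 and 49.8 CPM). Gins4 varied least of all measured replication genes in spleen, 2.61-fold between HSC-3 and MP (2.23 to 3.06).

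Among the clamp and its loader, Pcna, the sliding clamp, had 128 CPM in spleen MEP and 109 CPM in bone marrow MEP, and in HSC-3 115 and 145 CPM. Rfc1, Rfc3 and Rfc5, subunits of the clamp loader, were highest in HSC-3 in both organs. Rfc4 had 111 CPM in spleen MEP and 70.3 CPM in bone marrow MEP. Rfc2 did not follow the others. Its profile over the 15 sums had a Pearson r of 0.51 with the mean profile of the other members, the lowest of the 44, beside 0.99 for Lig1, the highest. In MCP, the cluster of mast cell and basophil genes, it had 289 CPM in spleen and 155 CPM in bone marrow. In the 198 spleen HSC-1 cells with a mast cell or basophil label it had 274 CPM (224 to 333), against 87.8 CPM (82.2 to 93.7) in the 1341 other spleen HSC-1 cells. Rfc1, Rfc3, Rfc4 and Rfc5 were at 82.6, 13.3, 10.7 and 18.6 CPM in the labelled cells and at 86.0, 33.5, 16.7 and 15.8 CPM in the others. The 3′ end of Rfc2 (chr5:134581366-134601805, plus strand) overlaps Lat2 (chr5:134600022-134615025, minus strand), an adaptor of mast cell receptors, by 1784 bases. Lat2 had 583 CPM in spleen MCP and 216 CPM in bone marrow MCP, and 637 CPM in the labelled HSC-1 cells against 62.3 CPM in the others. Whether the counting used strand is not given in the sources used here, so reads of the 2 genes cannot be told apart there. In all, 13 of the 44 genes overlap another gene of the count tables, 12 of them on the opposite strand. For Cdt1, the same-strand case, and for Pole the overlapping gene held 0 UMIs.

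Polymerase and primase genes were highest in HSC-3 or MEP. Pola1, the catalytic subunit of polymerase alpha, had 76.2 CPM in spleen HSC-3 and 91.6 CPM in bone marrow HSC-3, and Prim1, the catalytic primase subunit, 97.0 and 107 CPM. Prim2, the other primase subunit, had 35.6 and 36.5 CPM there. Pole, the leading strand polymerase, had 49.9 and 62.7 CPM in HSC-3, and 1.68 CPM in spleen MP against 18.3 CPM in bone marrow MP. Pold1, the catalytic subunit of polymerase delta, and Pola2, the regulatory subunit of polymerase alpha, peaked in MEP of spleen (51.0 and 36.3 CPM) and in HSC-3 of bone marrow (60.3 and 35.4 CPM). The group's summed level was lower in spleen in HSC-3, at 338 CPM against 393 CPM.

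The subunits of RPA, which coats single-stranded DNA, parted from one another. Rpa1 and Rpa2 peaked in MEP of spleen (52.5 and 95.6 CPM) and in HSC-3 of bone marrow (49.6 and 108 CPM). Rpa3, the smallest subunit, had more CPM in spleen than in bone marrow in all 7 clusters compared, past the 1.5-fold limit in MEP and LP, from 31.5 against 23.3 CPM in HSC-1 to 59.4 against 32.9 CPM in MEP. In MP the Rpa3 values were 17.9 CPM in spleen and 17.2 CPM in bone marrow, and the bone marrow value rests on 17 UMIs. Fen1, the flap nuclease, and Lig1, the ligase that joins Okazaki fragments, had 103 and 177 CPM in spleen MEP and 80.3 and 128 CPM in bone marrow MEP. Lig1 had 5.17 CPM in spleen MP, against 47.7 CPM in bone marrow MP.

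Of the 10 groups, the genes of nucleotide supply had the largest ratio in MEP. Their summed level in MEP was 502 CPM in spleen and 299.7 CPM in bone marrow, a ratio of 1.67 (1.58 to 1.77). Rrm2 had 90.5 CPM in spleen MEP and 38.8 CPM in bone marrow MEP. Tk1, the cytosolic thymidine kinase, had 94.5 and 45.5 CPM. Tyms, which makes thymidylate, had 106 and 65.0 CPM. Rrm1, the large subunit of ribonucleotide reductase, had 211 and 150.3 CPM, under the 1.5-fold limit. Outside MEP, Rrm2 was also higher in HSC-3, with 102 CPM in spleen and 53.7 CPM in bone marrow, while Rrm1 there had 219 and 232 CPM.

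In the mixed group, Nasp had 333 CPM in spleen MEP and 232 CPM in bone marrow MEP, its highest cluster in both organs. Slbp, which binds the stem-loop of histone mRNAs, peaked in HSC-3 (145 and 172 CPM). Dtl had 133 CPM in spleen HSC-3 and 210.4 CPM in bone marrow HSC-3. Ung, the uracil-DNA glycosylase, differed most between HSC-2 and HSC-3. It had 63.4 CPM in spleen HSC-2 and 56.7 CPM in bone marrow HSC-2, 37.2 and 43.8 CPM in MEP, but 7.79 and 5.45 CPM in HSC-3. In spleen it ranged 81.7-fold between HSC-2 and MP (46.4 to 159), where 12 UMIs were counted. In bone marrow it ranged 20.2-fold between HSC-2 and DCP (11.0 to 42.3), and Tk1 21.4-fold between HSC-3 and HSC-1 (18.1 to 25.4).

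The regulators differed from one another. Ccne1 had 50.7 CPM in spleen MEP and 30.7 CPM in bone marrow MEP, while no other cluster passed 12.3 CPM in spleen or 10.5 CPM in bone marrow. Ccne2, the second cyclin E, was spread over HSC-2 (16.1 and 21.8 CPM), HSC-3 (19.2 and 20.0 CPM) and MEP (18.4 and 18.1 CPM). E2f1, an activating E2F, was highest in HSC-2 in both organs, at 39.9 and 39.0 CPM. Spleen DCP held 2 UMIs of Ccne1 and 3 of Ccne2, and bone marrow DCP 2 and 10.

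**Figure D3:**
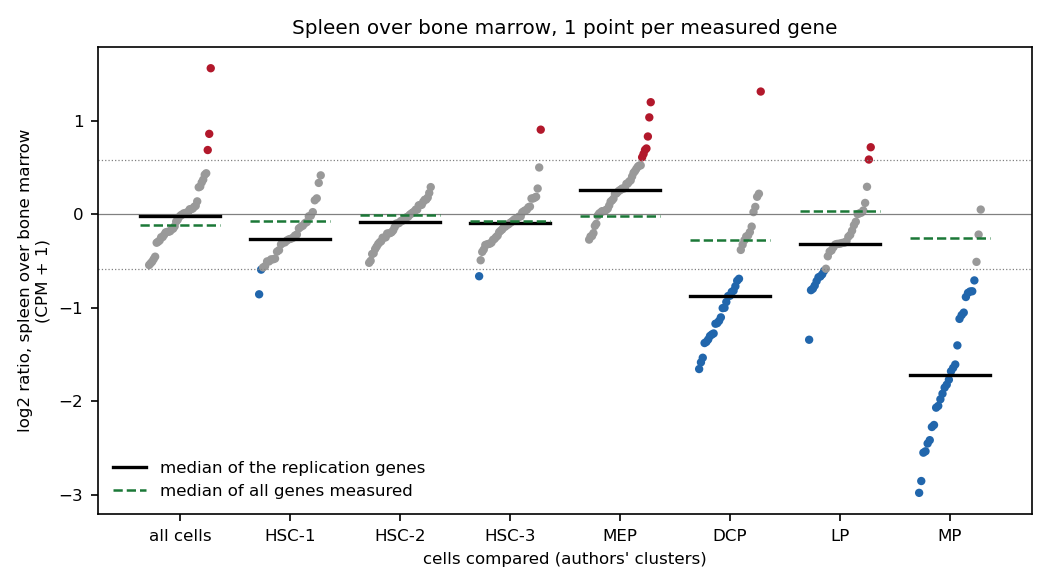
Log2 ratio of spleen over bone marrow (CPM + 1) for each measured replication gene, over all cells and within 7 of the authors' clusters; red points are at least 1.5-fold higher, blue points at least 1.5-fold lower, dotted lines mark that limit, black bars the median of these genes and green dashed bars the median of all genes. The medians are 0.26 in MEP, -0.87 in DCP and -1.72 in MP, and lie between -0.31 and -0.08 in HSC-1, HSC-2, HSC-3 and LP.

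Within MEP cells, most replication genes had more CPM in spleen. Of 44 genes measured, 7 were higher (background 7.46% of 7612 genes) and 0 lower (background 13.5%), and 37 of 44 ratios lay above 0. The 7 were Cdc45 (23.5 CPM in spleen, 15.0 CPM in bone marrow), Rfc4, Rpa3, Rrm2, Tyms, Tk1 and Ccne1. Rrm2 had the highest ratio, 2.33-fold (1.99 to 2.75), then Tk1, 2.08-fold (1.79 to 2.42). The MCM ring genes had a median log2 ratio of 0.07 in MEP and the nucleotide genes one of 0.86. The median over all 44 was 0.26, beside -0.02 for all genes. With TMM factors 14 were higher, beside 18.3% of all genes, and the median was 0.47, beside 0.19 for all genes. With each cell weighted alike 11 of 42 were higher, beside 8.93%. Over the same cells, 20 of 22 mitosis genes were higher in spleen, with a median of 1.07, among them Ube2c (275 CPM in spleen, 67.2 CPM in bone marrow) and Plk1 (62.2 and 16.7 CPM). Red cell genes summed to 3401 and 2446 CPM in these cells, dendritic genes to 846 and 205 CPM, and the part of stage, depth or other cells in the MEP values was not tested.

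The authors' second set of labels splits the erythroid cells into 3 stages. The summed level of the replication genes was 2795 CPM in spleen and 2307 CPM in bone marrow in Ery-1 cells, 3454 and 3337 CPM in Ery-2 cells, and 4167 and 4474 CPM in Ery-3 cells. It was higher at each later stage in both organs. Spleen was above bone marrow in Ery-1 and below it in Ery-3, and the 2 intervals overlapped in Ery-2. The organs held different numbers of each stage: 137, 134 and 628 cells in spleen, and 125, 131 and 69 cells in bone marrow.

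**Figure D4:**
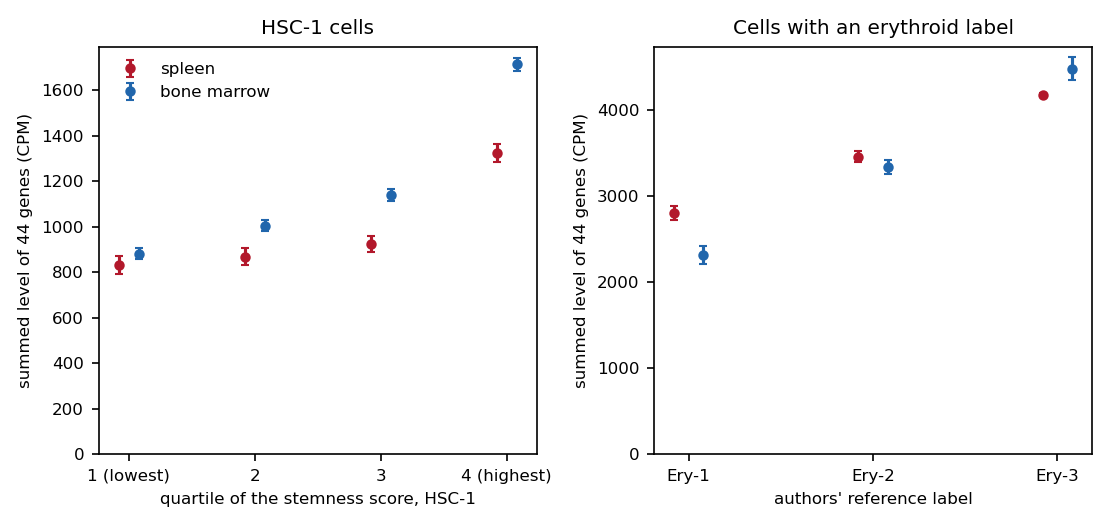
Summed level of the 44 genes (CPM, axis from 0) in quartiles of the authors' stemness score within HSC-1 (left panel) and in cells with the labels Ery-1, Ery-2 and Ery-3 (right panel), spleen in red and left of bone marrow in blue; lines are exact 95% Poisson intervals. The level is highest in the top quartile, at 1324 CPM in spleen and 1714 CPM in bone marrow and at Ery-3, at 4167 and 4474 CPM.

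In DCP and MP most replication genes were lower in spleen. In DCP, 23 of 35 genes were lower (background 32.5% of 8443 genes) and 1 was higher (background 13.7%), with a median log2 ratio of -0.87 beside -0.27 for all genes. Rfc3 had 9.57 CPM in spleen DCP and 32.3 CPM in bone marrow DCP, and Rpa2 16.8 and 52.4 CPM. The gene that ran the other way was Tk1, with 28.7 CPM in spleen and 10.9 CPM in bone marrow, a 2.62-fold ratio (1.83 to 3.85). Of 22 mitosis genes in the same cells, 0 were higher and 1 was lower, with a median of -0.09. With TMM factors 15 of 35 replication genes were lower, beside 17.7% of all genes, and the median was -0.50, beside 0.10 for all genes.

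In MP, 30 of the 44 genes averaged 10 CPM or more, of which 27 were lower in spleen (background 29.7% of 8044 genes) and 0 higher (background 8.03%), with a median of -1.72 beside -0.25. Of the 27, 16 were under 10 CPM in spleen MP and passed the limit on level only through their bone marrow value, as did 5 of the 23 in DCP, so these counts and medians follow in part from the limit. The summed level, which takes all 44 genes, had a ratio of 0.327 (0.309 to 0.347) in MP and 0.586 (0.562 to 0.611) in DCP. Among the 16, Lig1 had the lowest log2 ratio, -2.98, and Mcm2 had 3.49 CPM in spleen and 31.4 CPM in bone marrow, from 54 and 31 UMIs. The 3 measured genes that did not pass the limit were Gins4, Rpa1 and Rpa3. Here 22 of 22 mitosis genes were lower too, with a median of -2.42. The bone marrow MP cluster has 118 cells, so its counts are small.

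Markers of other cell types also differed between the organs in DCP and MP. The median log2 ratio of the measured dendritic genes was 7.41 in DCP and 1.15 in MP. It was 4.57 in MEP, where the summed level of dendritic genes in spleen was lower than in DCP or MP. Dendritic genes summed to 46955 CPM in spleen DCP and 403 CPM in bone marrow DCP, and to 64920 and 28020 CPM in MP. By label, 84.8% of spleen DCP cells and 0.794% of bone marrow DCP cells were of other lineages, and in MP 99.6% and 67.8%. Within spleen DCP, the 46 cells with a progenitor label had 1236 CPM (1152 to 1324) of replication genes and the 256 others 773 CPM (747 to 800.2). Bone marrow DCP had 1427 CPM. Ratios without the labelled cells were not computed for DCP and MP, where fewer than 100 spleen cells carry a progenitor label, and the part of these cells in the ratios was not tested.

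In LP, 9 of 34 genes were lower in spleen (background 10.7% of 8491 genes) and 2 were higher (background 8.9%), with a median of -0.31 beside 0.04. Pole had 8.97 CPM in spleen and 24.3 CPM in bone marrow, and Prim1 31.2 and 53.5 CPM, while Rpa3 (43.9 and 26.3 CPM) and Prim2 (27.1 and 17.7 CPM) were higher. T, NK and innate lymphoid genes summed to 3371 CPM in spleen LP and 108 CPM in bone marrow LP. Without the cells labelled as other lineages, 82.7% of spleen LP cells, 2 of 36 genes were lower, beside 10.7% of all genes, and 4 were higher, beside 7.08%. The median was then -0.03, beside 0.03 for all genes.

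In the 3 HSC clusters few replication genes passed the limit. HSC-2 had 0 of 42 genes higher and 0 lower, beside 1.67% and 2.77% of 8496 genes, with a median of -0.08 and a range of -0.52 to 0.29. HSC-3 had Rrm2 higher and Dtl lower among 41 genes, beside 5.77% and 8.77% of 8539 genes. HSC-1 had 2 of 32 genes lower and 0 higher, beside 5.48% and 4.96% of 8716 genes. With thinned cells 4 of 31 were lower in HSC-1, beside 4.24% of all genes, and 3 of 42 in HSC-2, beside 4.15%. Without thinning the HSC-1 genes were Gins2, with 16.6 CPM in spleen and 30.8 CPM in bone marrow, and Rpa2, with 21.2 and 32.4 CPM. In HSC-1, 27 of 32 ratios lay below 0 and the median was -0.26 beside -0.07 for all genes. Of the 1539 spleen HSC-1 cells, 462 had a label of another lineage and 749 CPM of replication genes. The other spleen HSC-1 cells had 1131 CPM, against 1221 CPM in bone marrow HSC-1, and without the labelled cells the median was -0.14.

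HSC-2 and HSC-3 had like summed levels but differed in which replication genes led. In spleen 8 of 43 genes were higher in HSC-3 than in HSC-2 (background 8.34% of 8498 genes) and 4 were lower (background 7.5%). In bone marrow 6 of 42 were higher (background 5.14% of 8580 genes) and 2 were lower (background 3.6%). Mcm10, Cdc45, Gins3, Rrm1 and Tk1 were higher in HSC-3 in both organs, Mcm2 and Ung were lower in both, and 0 genes ran opposite ways. The share of all genes with the same call in both organs was not computed, so the shared calls are a description. Tk1 had 127 CPM in HSC-3 and 44.1 CPM in HSC-2 of spleen, and 121 and 51.0 CPM in bone marrow. Ung had 7.79 CPM in HSC-3 and 63.4 CPM in HSC-2 of spleen, a log2 ratio of -2.87, and 5.45 and 56.7 CPM in bone marrow, a log2 ratio of -3.16. Its HSC-3 values lie under 10 CPM, so in both organs it passed the limit on level only through HSC-2. Rrm2 had 102 and 35.8 CPM in spleen, and 53.7 and 41.0 CPM in bone marrow, past the limit in spleen and not in bone marrow; the difference was not tested. The median log2 ratio was 0.22 in spleen and 0.27 in bone marrow. By comparison all 22 mitosis genes were higher in HSC-3 in both organs, with medians of 2.42 and 1.80. With thinned cells 13 of 42 genes were higher in spleen, beside 10.6% of all genes, and 10 of 42 in bone marrow, beside 5.71%.

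**Figure D5:**
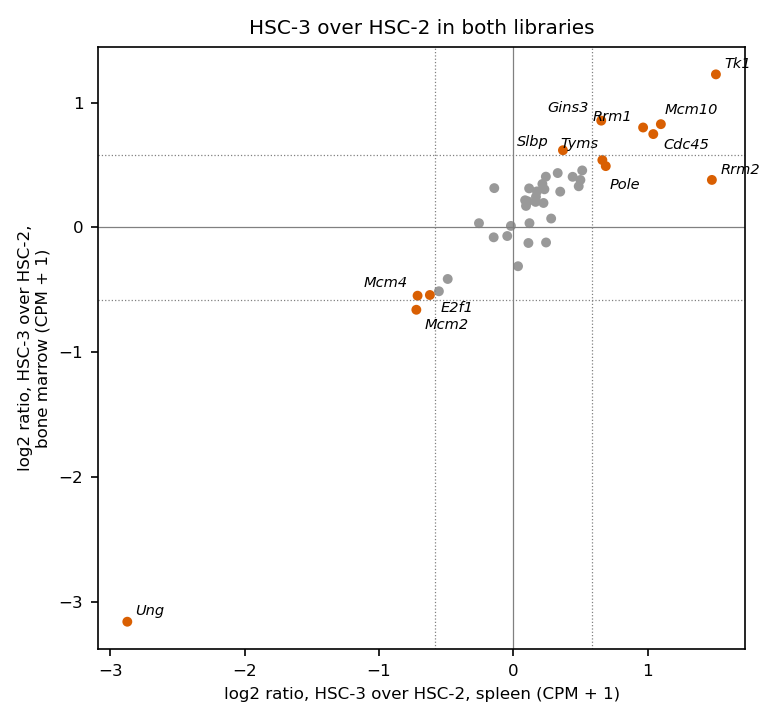
Log2 ratio of HSC-3 over HSC-2 (CPM + 1) in spleen (x axis) and bone marrow (y axis) for the 42 replication genes measured in both; dotted lines mark 1.5-fold and the 13 coloured, named genes are past it in at least 1 organ. Ung lies alone at -2.87 and -3.16, and Tk1 at 1.51 and 1.23 is the gene farthest to the upper right.

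Within HSC-1 the replication genes were higher at a higher stemness score, given by the authors for each cell, and a known stem cell gene was lower. From the lowest to the highest quartile of the score, the summed level was 833, 869, 923 and 1324 CPM in spleen and 881, 1006, 1140 and 1714 CPM in bone marrow. Hlf, a transcription factor of resting stem cells, was 488, 390, 317 and 220.4 CPM in spleen and 805, 736, 653 and 544 CPM in bone marrow. Between the highest and lowest quartile, 16 of 32 genes were higher in spleen (background 9.04% of 8652 genes) and 1 lower (background 16.9%), and in bone marrow 21 of 31 were higher (background 4.33% of 8736 genes) and 0 lower (background 3.85%). Mcm5 had 37.2 CPM in the highest and 6.91 CPM in the lowest quartile of spleen, and 44.7 and 10.9 CPM in bone marrow. Ung averaged under 10 CPM over these quartiles in both organs and is not among the genes counted. It had 12.0 and 0.494 CPM in spleen, where the lowest quartile held 1 UMI, and 15.4 and 2.63 CPM in bone marrow. Lig1 had 33.2 and 6.42 CPM in spleen, and 43.6 and 9.31 CPM in bone marrow. In the lowest quartile Mcm5 was under 10 CPM in spleen and Lig1 in both organs. Such genes passed the limit on level through the highest quartile, so the counts of higher genes follow in part from the limit. The ratios of the 6 MCM ring genes ran between 1.88-fold (Mcm6) and 5.38-fold (Mcm5) in spleen and between 2.05-fold (Mcm6) and 4.33-fold (Mcm3) in bone marrow. Pole was the 1 gene lower in spleen, at 14.9 CPM in the highest and 30.1 CPM in the lowest quartile, and it had 23.9 and 26.9 CPM in bone marrow. The median depth also climbed with the score, in spleen to 9065 UMIs in the highest quartile against 5608 in the lowest, and in bone marrow to 5542 against 4296. After thinning, the median per cell was 3 UMIs in all 4 quartiles of spleen and 3, 3, 4 and 5 UMIs in bone marrow. The opposite course did not hold over the authors' pseudotime in spleen, where the members and Hlf were both lowest in the top quartile. Pseudotime is given for part of the cells. From its lowest to its highest quartile the members' summed level was 1025, 1076, 944 and 836 CPM in spleen and 1110, 1168, 1063 and 1267 CPM in bone marrow, and Hlf was 488, 428, 295 and 132 CPM in spleen and 778, 762, 700.4 and 552 CPM in bone marrow. How the authors made the stemness score, and whether it uses these genes, is not given in the sources used here, so the relation is a description.

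Other genes of the pathway were counted in the same way. Of 50 further replication genes, 45 were measured over all cells, 5 were higher in spleen (background 10.8%) and 0 lower (background 18.3%), with a median of -0.06 beside -0.11 for all genes, so the higher share lies at the background. The highest were Asf1b, a histone chaperone (27.8 CPM in spleen, 16.1 CPM in bone marrow), Orc2 (69.0 and 41.5 CPM) and Samhd1, which breaks down deoxynucleotides (149 and 90.2 CPM). The lowest were Wdhd1, Atad5 and Rrm2b, none past the limit. In MEP 6 of 48 were higher (background 7.46%) and 2 lower (background 13.5%). In DCP 4 of 42 were higher (background 13.7%) and 21 lower (background 32.5%). In MP 2 of 38 were higher (background 8.03%) and 25 lower (background 29.7%). Of 28 genes of G1/S transcription and the checkpoint, 25 were measured over all cells. E2f4, a repressor E2F, was higher at 68.7 CPM in spleen and 36.2 CPM in bone marrow, and Rbl2, its pocket protein partner, was lower at 41.7 and 82.8 CPM.

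Over the 15 sums of library and cluster, the genes outside the group whose profile was most like the members' mean were Dnmt1, Dut, Atad5, Dtymk and Tipin, with Pearson r of 0.97 to 0.96, then Tfdp1, Rnaseh2a, Ssrp1, Hat1 and Baz1b, at 0.95. They were the top 10 of the 3228 genes that averaged 50 CPM or more. The mean profile of the 22 mitosis genes had an r of 0.35 with the members' mean. These sums share cells' depth and 2 libraries, and r is given as a description.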

How the data were processed

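The deposited tables hold counts, whole UMIs per gene and cell, not normalized. Per the design text of the series, about 27000 reads per cell were aligned to mm10 and counted with Cell Ranger 3.1.0. The submitters' processing notes list Seurat 3.1.5 and mm9, which conflicts with that text, and the design text and extract protocol name kit versions 3 and 3.1. The deposited cell table gives library, cluster, 2 sets of labels, a stemness score and a pseudotime. The authors' batch-integrated matrix was not used. All deposited cells were kept, no doublet caller was run, and how the authors treated doublets is not stated.

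Symbols and coordinates came from GENCODE M21 (GRCm38), which named 30934 of the identifiers. Counts were summed per library and cluster and scaled to 1000000 (Python 3.11.15, numpy 2.4.6, scipy 1.17.1). Sums have exact Poisson intervals and ratios the exact interval of 2 counts, at 95%. Log2 ratios use a pseudocount of 1 CPM and genes averaging 10 CPM or more. Clusters were compared where both libraries held 100 cells or more, so MCP was not compared. TMM factors came from edgeR 4.0.16. Scaling, filter, pseudocount, weighting of cells and clusters, thinning, labels of other lineages and the 5% of cells with the most UMIs were varied. Sums and calls were tested on simulated data.

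The members, roles and lists were chosen with earlier results of these data known. All 44 members could be named, with the 3 highest and 3 lowest genes of each further list and the 10 genes of most similar profile.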

Additional observations from a re-analysis of the deposited data

Results flagged for a closer look

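For 4 genes the ratio of spleen over bone marrow ran past the 1.5-fold limit upward in one cluster and downward in another. Cdc45 had a log2 ratio of 0.61 in MEP and -0.77 in DCP, a difference of 1.38. Rfc4 had 0.65 in MEP and -1.61 in MP, a difference of 2.25. Tyms had 0.69 in MEP and -1.12 in MP, a difference of 1.81. Tk1 had 1.31 in DCP and -1.85 in MP, a difference of 3.17. With 1 library per organ these differences were not tested. The bone marrow values in MP rest on 22 UMIs of Rfc4, 19 of Tyms and 24 of Tk1, and the bone marrow value of Tk1 in DCP on 39.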

How the results depend on the processing

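With 1 library per organ there is no replicate to leave out, and the organs share no cells, so counting error is the only error given. No paired analysis was possible because each organ has 1 library and the labels pair no samples. Over all cells, the count of genes higher in spleen was 3, beside 10.8% of all genes. It was 5 with TMM factors (18.6% of all genes), 1 with the clusters weighted alike (4.29%) and 10 without cells labelled as other lineages (14.4%). It was 1 at a 2-fold limit, for which the share of all genes was not computed, and 0 with cells weighted alike (8.5%) or thinned (7.62%). The count lower, 0 beside 18.3% of all genes, was 3 with cells weighted alike and 5 with thinned cells (12.6% of all genes in each). The median log2 ratio (-0.02) was 0.18 with TMM factors, 0.089 centred on the median of all genes, -0.36 with cells weighted alike, -0.38 thinned and 0.36 without other labels. Within HSC-3 the median (-0.09) was -0.0076 without other labels, -0.012 with TMM factors and -0.017 centred. It was 0.47 in MEP with TMM factors, against 0.26, and -0.031 in LP without other labels, against -0.31. The genes lower in HSC-1 (2, beside 5.48% of all genes) were 4 thinned (4.24%) and 3 with cells weighted alike (5.39%). They were 1 without other labels (2.17%), with TMM factors (4.21%) or centred (3.91%). Higher in HSC-1 was 1 gene without other labels (1.63%), against 0 (4.96%). In HSC-2 those lower (0, beside 2.77%) were 3 thinned (4.15%) and 2 with cells weighted alike (2.85%). In DCP those lower (23, beside 32.5%) were 15 with TMM factors (17.7%). In LP those lower (9, beside 10.7%) were 2 without other labels (10.7%), where those higher (2, beside 8.9%) were 4 (7.08%). For HSC-3 over HSC-2, thinning gave 13 genes higher in spleen (10.6% of all genes), against 8 (8.34%). In bone marrow it gave 10 higher (5.71%) and 1 lower (4.36%), against 6 (5.14%) and 2 (3.6%). The causes of these shifts were not tested. The TMM and centred values within clusters and all alternatives for HSC-3 over HSC-2 were chosen after seeing the data. In all alternatives run, DCP, MP, LP, HSC-1, HSC-2 and HSC-3 kept a median below 0 and MEP one above 0. DCP and MP could not be computed without other labels. Of 374 values of single genes under alternatives, 148 moved by less than their counting interval and 226 by more. A change of sign was counted only for the 3 genes past the limit, Ccne1, Rrm2 and Nasp, and 0 of their values changed sign. For the other genes it was not counted.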
